A study of Mus musculus with 12 samples.

Results

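The annexins *Anxa1*, *Anxa2*, *Anxa3*, *Anxa4* and *Anxa5* and the S100 genes *S100a4*, *S100a6*, *S100a10* and *S100a11* were followed across 4 groups of sorted mouse microglia. These 9 genes were found by symbol among the 55401 genes of the count files, and 8 of them passed the filter on low counts. CD45int CD11b+ microglia were isolated from the brain 3 days after sham surgery (Sham) or transient focal cerebral ischemia (tFCI), a stroke model in which the middle cerebral artery was closed for 60 min, and their RNA was sequenced in 12 bulk libraries, 3 for each combination of genotype (WT or miKO) and surgery (Sham or tFCI). All animals were male, carried 2 floxed *Hdac3* alleles (HDAC3 loxp/loxp) and received tamoxifen on 5 consecutive days at 6 to 8 weeks of age, at least a month before surgery. WT mice had no Cre (CX3CR1 wt/wt), whereas miKO mice carried a tamoxifen-inducible Cre in one *Cx3cr1* allele (CX3CR1 CreER/wt), so that they also lacked one working copy of *Cx3cr1*, a fractalkine receptor gene of microglia, and the driver can act in other cells that express it. Each replicate was a pool of 3 to 4 hemispheres. Replicate 1 of each group was labelled batch 1, and replicates 2 and 3 were labelled batch 2.

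Annexins are proteins that bind phospholipid membranes when calcium rises. They take part in the closing of membrane wounds, in vesicle traffic and in the handling of dying cells, where annexin A5 is known for binding exposed phosphatidylserine. S100 proteins are small calcium sensors, several of which join an annexin: S100A10 (p11) binds annexin A2 in a heterotetramer that holds plasminogen and its activator at the cell surface, and S100A11 binds annexin A1 and annexin A2. Annexin A1 is also a secreted ligand of formyl peptide receptors with a role in ending inflammation, and S100A4 and S100A6 are typical of motile and proliferating cells.

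Depth was 7697864 to 9452222 counts on genes per library. *Hdac3*, the targeted gene, lay between 35.0 and 46.4 CPM (counts scaled to library size by trimmed mean of M values) in WT-Sham, between 20.9 and 25.8 in miKO-Sham, between 43.9 and 54.0 in WT-tFCI and between 27.1 and 36.0 in miKO-tFCI, so no miKO library overlapped the WT libraries of the same surgery. The 10 microglia markers were all detected in each group, with a summed level of 24132 to 31785 CPM in WT-Sham, 20726 to 25731 in miKO-Sham, 16983 to 18850 in WT-tFCI and 8317 to 16248 in miKO-tFCI. Markers of other cells were present as well, and they differed between groups and batches. The 6 fibroblast markers (*Col1a1*, *Col1a2*, *Col3a1*, *Dcn*, *Lum* and *Pdgfra*) summed to 2.69 to 5.03 CPM in WT-Sham, 8.89 to 12.3 in miKO-Sham, 237 to 1058 in WT-tFCI and 593 to 2065 in miKO-tFCI, and the batch 1 library was the highest in both tFCI groups. The 13 monocyte and macrophage markers summed to 43.8 to 115.6, 99.1 to 227.9, 486 to 800.0 and 807 to 1328 CPM in the same order, and the 8 endothelial and mural markers to 23.3 to 28.4 (with *Rgs5* at 0), 13.7 to 18.9, 47.3 to 152 and 96.9 to 233 CPM. The 8 dendritic cell markers summed to 120 and 348 CPM in the batch 1 libraries of WT-tFCI and miKO-tFCI, and to 14.8 to 53.3 CPM in the other libraries. The 8 border-associated macrophage markers summed to 95.7 to 125.4 CPM in WT-Sham, 101 to 276 in miKO-Sham, 172 to 258 in WT-tFCI and 328 to 583 in miKO-tFCI, without overlap between the tFCI groups, and the 8 astrocyte markers to 182 to 198, 114 to 138, 173 to 304 and 222 to 631 CPM in that order. *Slc1a3* made up most of the astrocyte sum in WT-Sham (180 CPM on average). Its log2 fold change after stroke was -0.69 in WT and -0.70 in miKO mice. Mean *Gfap* rose from 0.33 to 46.3 CPM in WT and from 1.68 to 142 CPM in miKO mice. By the calling rule given below, 5 of the 8 were higher after stroke in WT mice, beside 20.9% of all genes. In miKO mice 7 of the 8 were higher, beside 21.9%. In bulk RNA, a change in the number of cells of a type and a change in the RNA per cell cannot be told apart, and the part of other cells in the results on annexins and S100 genes was not tested.

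After stroke, 7 of the 8 tested genes were called higher for WT-tFCI vs. WT-Sham, namely all but *Anxa3*, beside 20.9% of all 16451 tested genes that were called higher. The same count held for miKO-tFCI vs. miKO-Sham, with 7 of 8 higher beside 21.9% of all genes. The median log2 fold change of the 8 genes was 2.62 in WT mice and 3.59 in miKO mice, against 0.02 and 0.03 over all tested genes. A gene was called at a Benjamini-Hochberg (BH) adjusted p under 0.05 in edgeR's quasi-likelihood test and an absolute log2 fold change above 0.58, with batch as a term. Between genotypes after stroke, all 8 tested genes were higher in miKO-tFCI than in WT-tFCI, beside 4.08% of all genes called higher and 4.71% called lower, whereas in sham-operated mice (miKO-Sham vs. WT-Sham) *Anxa2*, *Anxa3* and *Anxa5* were higher, beside 8.58% of all genes, and *S100a10* was lower, beside 6.8% of all genes. Without the batch term, 2 genes were called in each of these comparisons, *Anxa3* and *Anxa5*, and in batch 2 alone 7 were called in sham mice. The genotype calls of *Anxa4* and *S100a11* after stroke were also lost on leaving out any single WT-tFCI library. The median log2 fold change between genotypes of the 8 genes was 1.14 after stroke and 1.11 in sham mice, against 0.04 for all genes in both. WT-Sham libraries serve in both the WT stroke comparison and the sham genotype comparison, and WT-tFCI, miKO-Sham and miKO-tFCI libraries are likewise shared between comparisons, so these counts are not independent.

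**Figure D1:**
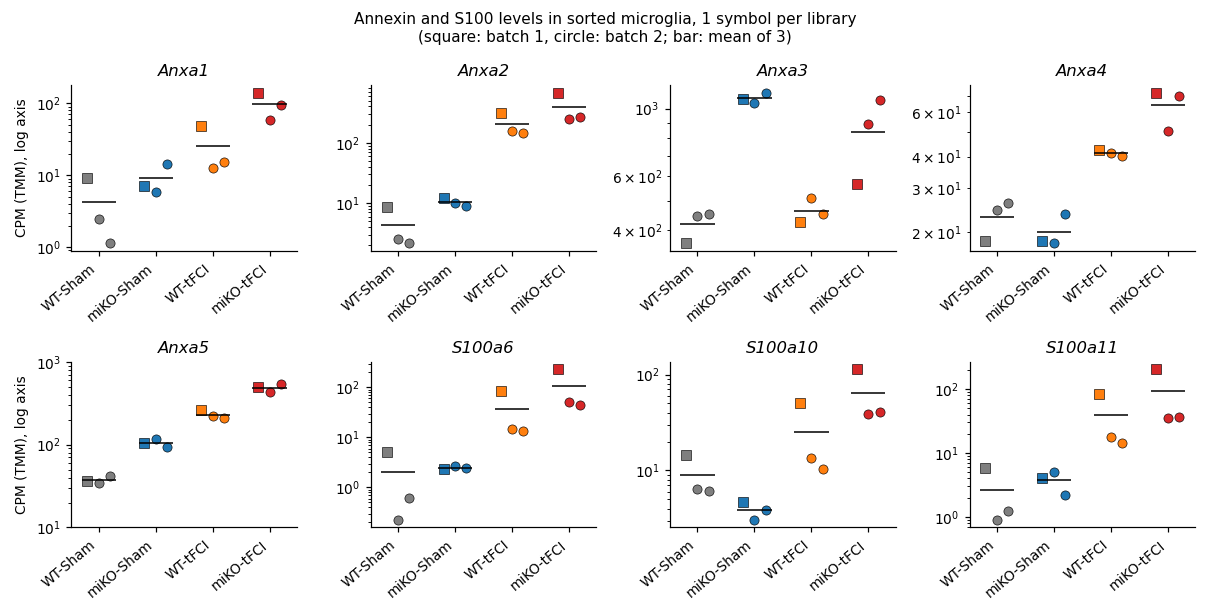
Level of each of the 8 tested genes in CPM on a log axis, 1 symbol per library, squares for batch 1, circles for batch 2 and a bar for the mean of 3. The groups did not overlap for *Anxa5*, the level of *Anxa3* was set apart by genotype rather than surgery, and the batch 1 libraries of WT-Sham, WT-tFCI and miKO-tFCI were the highest of their group for *Anxa1*, *Anxa2*, *S100a6*, *S100a10* and *S100a11*.

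*Anxa2*, at chr9:69453620-69491795 on the plus strand (GRCm38), encodes the annexin that carries S100A10 to the membrane. Its level was 8.53, 2.58 and 2.15 CPM in WT-Sham replicates 1, 2 and 3, 12.4, 9.99 and 9.09 in miKO-Sham, 309, 156 and 143 in WT-tFCI, and 673, 247 and 271 in miKO-tFCI. The groups followed each other in this order without overlap, apart from the tFCI groups, where the batch 1 WT library exceeded both batch 2 miKO libraries. The log2 fold change after stroke was 5.61 (SE 0.24, edgeR adjusted p = 1.11e-09) in WT and 5.10 (SE 0.23, edgeR adjusted p = 9.52e-09) in miKO microglia, by far more than the spread between replicates. The genotype difference was 1.42 (SE 0.25, edgeR adjusted p = 0.00105) in sham mice and 0.91 (SE 0.19, edgeR adjusted p = 0.00721) after stroke. Within batches, the sham difference was 0.52 in batch 1 and 1.91 in batch 2, and the difference after stroke was 1.12 and 0.79. The fibroblast and monocyte marker sums were also higher in the tFCI libraries and highest in batch 1 of both tFCI groups.

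*S100a11*, at chr3:93520488-93526287 on the plus strand, followed *Anxa2* closely. WT-Sham libraries held 5.77, 0.90 and 1.23 CPM, miKO-Sham 4.03, 4.99 and 2.18, WT-tFCI 83.9, 17.7 and 14.4, and miKO-tFCI 203, 34.8 and 36.6. The sham groups overlapped, both tFCI groups lay above them, and the tFCI groups overlapped each other because the batch 1 WT library was high. It rose by a log2 fold change of 3.82 (SE 0.40, edgeR adjusted p = 4.76e-06) in WT and 4.18 (SE 0.39, edgeR adjusted p = 1.76e-06) in miKO mice. The difference between miKO-tFCI and WT-tFCI was 1.20 (SE 0.31, edgeR adjusted p = 0.0227), with 1.28 in batch 1 and 1.15 in batch 2. That call was lost in DESeq2 (adjusted p = 0.0901) and without any one of WT-tFCI replicates 1, 2 and 3 or miKO-tFCI replicate 1, with log2 fold changes of 0.91 to 1.34. In sham mice the difference was 0.84 (SE 0.49, edgeR adjusted p = 0.267), with opposite signs within batches (-0.49 in batch 1 and 1.46 in batch 2), and it was called without miKO-Sham replicate 1 (1.74, edgeR adjusted p = 0.00288). The gene has 2 processed pseudogenes of 99.0% and 98.7% identity over 297 bases, *Gm12854* and *Gm7665*, whose counts came to 11.2% to 15.9% of its own in tFCI libraries but 25.0% to 100.0% in Sham libraries, so that its low sham levels are uncertain.

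*S100a6*, at chr3:90612882-90624181 on the plus strand, encodes calcyclin, a calcium sensor of proliferating and stromal cells. Its level was 5.17, 0.22 and 0.62 CPM in WT-Sham, 2.36, 2.64 and 2.43 in miKO-Sham, 84.4, 15.0 and 13.6 in WT-tFCI, and 229, 52.2 and 44.2 in miKO-tFCI. As for *S100a11*, stroke separated the groups and genotype did not do so in raw levels, since the batch 1 libraries were high in all groups but miKO-Sham. The log2 fold change was 4.24 (SE 0.43, edgeR adjusted p = 3.23e-06) in WT and 5.13 (SE 0.42, edgeR adjusted p = 5.92e-07) in miKO mice after stroke. Between miKO-tFCI and WT-tFCI it was 1.62 (SE 0.31, edgeR adjusted p = 0.00496), and within batches it was 1.44 and 1.73. In sham mice it was 0.73 (SE 0.56, edgeR adjusted p = 0.412), with -1.06 in batch 1 and 2.14 in batch 2, and it was called without miKO-Sham replicate 1 (1.81, edgeR adjusted p = 0.00501).

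The promoters of *Anxa2* and *S100a11* are shown because they share a sequence motif that the other matched promoters lacked. *S100a6*, whose levels were as close to both genes (r of 0.976 with *Anxa2* and 0.990 with *S100a11*, against 0.977 between those 2), had no such match in its window. The letters TGANTCA, the binding motif of the AP-1 (Fos and Jun) factors, which reads the same on both strands, occurred in the 300-base RefSeq window around the start of these 2 genes, and in 2565 of 32851 such windows in all (7.81%). Windows were found for 7 of the 9 genes (8 windows), and not for *Anxa3* and *S100a10*. Both sequences are of GRCm38.p6, plus strand, 5′ to 3′, at chr9:69453433-69453732 for *Anxa2* and chr3:93520246-93520545 for *S100a11*, with the AP-1 letters in capitals.
Anxa2: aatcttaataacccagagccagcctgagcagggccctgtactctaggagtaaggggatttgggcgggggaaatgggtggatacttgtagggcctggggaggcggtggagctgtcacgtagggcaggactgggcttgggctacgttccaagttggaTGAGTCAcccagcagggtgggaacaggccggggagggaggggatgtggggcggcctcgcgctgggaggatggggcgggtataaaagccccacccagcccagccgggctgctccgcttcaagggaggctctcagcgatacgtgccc
S100a11: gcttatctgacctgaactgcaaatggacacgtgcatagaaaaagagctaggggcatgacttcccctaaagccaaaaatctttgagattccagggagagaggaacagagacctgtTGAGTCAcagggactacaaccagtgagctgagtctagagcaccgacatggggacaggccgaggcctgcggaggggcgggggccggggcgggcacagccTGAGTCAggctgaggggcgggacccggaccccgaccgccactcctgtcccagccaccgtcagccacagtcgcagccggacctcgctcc
The motif began at position -95 from the start in *Anxa2* and at positions -136 and -38 in *S100a11*, and no other searched motif overlapped it. The letters GAGGAAG, a motif of the myeloid factor PU.1, were found on either strand in the *S100a4* window and in 13.6% of all windows, and the TATA letters TATAAA in the windows of *Anxa1*, *Anxa2* and *S100a4* and in 13.6% of all windows. These are matches of letters, and factor binding was not measured.

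*S100a10*, at chr3:93555080-93564643 on the plus strand, encodes the p11 partner of annexin A2 and behaved differently from *S100a6* and *S100a11*. The mean level of *S100a4*, which did not pass the filter, was also lowest in miKO-Sham. WT-Sham libraries held 14.7, 6.39 and 6.05 CPM, miKO-Sham 4.72, 3.05 and 3.84, WT-tFCI 51.1, 13.6 and 10.4, and miKO-tFCI 113, 38.5 and 41.0. miKO-Sham was the lowest group and lay below all WT-Sham libraries, WT-Sham and WT-tFCI overlapped, and so did the tFCI groups. It rose after stroke by 1.30 (SE 0.25, edgeR adjusted p = 0.000868) in WT and by 3.91 (SE 0.28, edgeR adjusted p = 1.50e-07) in miKO mice, on the log2 scale. The difference between these changes, the interaction of genotype and surgery, was 2.61 (SE 0.37, edgeR adjusted p = 0.00118). Within batches it was 2.73 and 2.54, and it was the only called interaction among the 8 tested genes, beside 1.25% of all genes called higher and 2.57% called lower. It was not called without the batch term (2.58, edgeR adjusted p = 0.193), and in batch 2 alone *Anxa2* had a called interaction as well (-1.25, edgeR adjusted p = 0.0221), against -0.51 (SE 0.31, edgeR adjusted p = 0.440) over both batches. The interaction of *Anxa4* was 0.83 (SE 0.25, edgeR adjusted p = 0.0876), and it was called without WT-Sham replicate 1 (0.98, edgeR adjusted p = 0.0383), without miKO-tFCI replicate 2 (0.99, edgeR adjusted p = 0.0328) and with no filter on low counts (0.82, edgeR adjusted p = 0.0401). Relative to WT, *S100a10* was lower in miKO-Sham (log2 fold change -1.13, SE 0.29, edgeR adjusted p = 0.0129) and higher in miKO-tFCI (1.48, SE 0.23, edgeR adjusted p = 0.000995). The sham difference kept its sign but lost its call without miKO-Sham replicate 1 (-0.69, edgeR adjusted p = 0.119), while within batches it was -1.59 and -0.82.

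**Figure D2:**
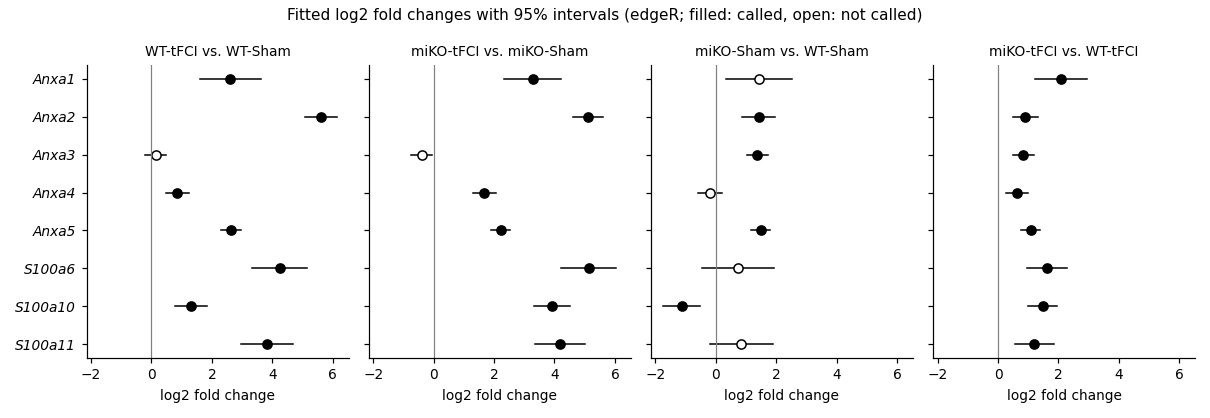
Fitted log2 fold change of the 8 tested genes (points) with 95% intervals (lines) in 4 comparisons from edgeR, filled where called and open where not. All 8 genes lay above 0 for miKO-tFCI vs. WT-tFCI, and *S100a10* lay below 0 for miKO-Sham vs. WT-Sham at -1.13.

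S100A10 protein is known to be protected from degradation by annexin A2, so the ratio of their transcripts was compared per kilobase of exon. The ratio of *S100a10* to *Anxa2* was 5.29, 7.63 and 8.65 in WT-Sham, 1.18, 0.94 and 1.30 in miKO-Sham, 0.51, 0.27 and 0.22 in WT-tFCI, and 0.52, 0.48 and 0.47 in miKO-tFCI. The S100 transcript thus exceeded its partner in WT-Sham and fell short of it in all tFCI libraries. The log2 ratio differed by -4.49 between WT-tFCI and WT-Sham, by -2.64 between miKO-Sham and WT-Sham and by -1.21 between miKO-tFCI and miKO-Sham, without overlap in any of the 3. With 3 libraries a group, an exact two-sided permutation test gave its smallest p, 0.1, for each (BH-adjusted p = 0.267 over 8 ratio tests), so none could pass 0.05. For miKO-tFCI vs. WT-tFCI the difference was 0.64 with overlap (exact permutation p = 0.3), and within batches it was 0.03 and 0.95. The ratio of *S100a11* to *Anxa1* overlapped between groups in all 4 comparisons, with exact permutation p of 0.2 to 0.6, and ranged from 0.87 to 9.88 over the libraries.

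**Figure D3:**
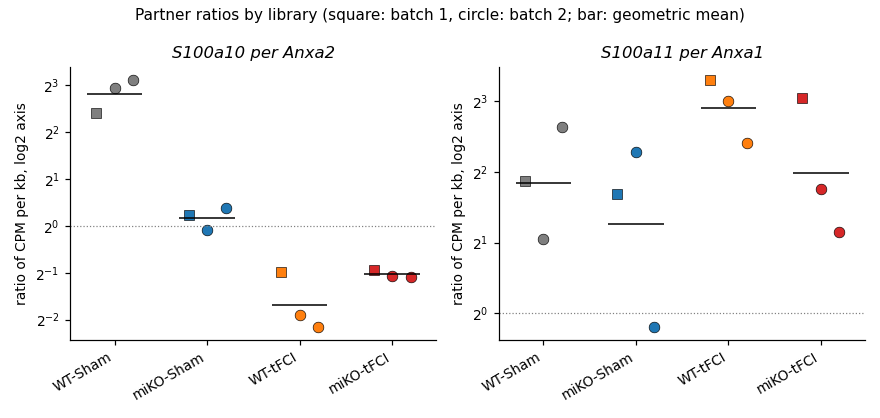
Ratio of CPM per kilobase of *S100a10* to *Anxa2* (left) and of *S100a11* to *Anxa1* (right) on a log2 axis, 1 symbol per library with the geometric mean as a bar. The *S100a10* to *Anxa2* ratio lay at 5.29 to 8.65 in WT-Sham and at 0.22 to 0.52 in the tFCI groups, while the other ratio overlapped between all groups compared.

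*Anxa1*, at chr19:20373428-20390944 on the minus strand, encodes the secreted pro-resolving annexin. It was present at 9.02, 2.46 and 1.13 CPM in WT-Sham, 7.08, 5.83 and 14.2 in miKO-Sham, 48.4, 12.6 and 15.4 in WT-tFCI, and 140.0, 58.4 and 93.6 in miKO-tFCI. Mean levels ascended in that same order, with overlap between the sham groups and between miKO-Sham and WT-tFCI, whereas all miKO-tFCI libraries exceeded the others. The batch 1 library was the highest of its group in WT-Sham, WT-tFCI and miKO-tFCI. After stroke *Anxa1* rose by 2.61 (SE 0.48, edgeR adjusted p = 0.000603) in WT and 3.27 (SE 0.44, edgeR adjusted p = 4.85e-05) in miKO mice, on the log2 scale. After stroke it was higher in miKO mice by 2.09 (SE 0.40, edgeR adjusted p = 0.00500), with 1.53 and 2.39 within batches, the largest genotype difference of the 8 genes in that comparison. In sham mice the difference was 1.43 (SE 0.51, edgeR adjusted p = 0.0671), with -0.34 in batch 1 and 2.28 in batch 2, and it was called without miKO-Sham replicate 1 (2.08, edgeR adjusted p = 0.00572) or WT-Sham replicate 1 (2.10, edgeR adjusted p = 0.0229).

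*Anxa5*, at chr3:36448923-36475894 on the minus strand, was the most regular of the annexins. Its level was 36.4, 34.1 and 41.7 CPM in WT-Sham, 104, 117 and 92.9 in miKO-Sham, 262, 219 and 212 in WT-tFCI, and 492, 427 and 540.4 in miKO-tFCI. No group overlapped another, and the batch 1 libraries did not stand apart as they did for *S100a6*. The log2 fold change was 2.62 (SE 0.15, edgeR adjusted p = 1.64e-08) and 2.22 (SE 0.15, edgeR adjusted p = 1.04e-07) for stroke in WT and miKO mice, 1.48 (SE 0.15, edgeR adjusted p = 8.12e-06) for genotype in sham mice and 1.08 (SE 0.14, edgeR adjusted p = 0.000330) for genotype after stroke. Within batches, the genotype differences were 1.51 and 1.46 in sham mice and 0.91 and 1.15 after stroke.

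*Anxa3*, at chr5:96793339-96845966 on the plus strand, had the highest mean level per length of the 9 genes in both sham groups, at 115 ± 13.7 CPM per kb in WT-Sham and 297 ± 11.6 in miKO-Sham (SD, n = 3). In WT-tFCI it was at 127 ± 11.7 CPM per kb, next to *Anxa5* at 130.0 ± 15.0, a difference within their spread. Its level was 362, 445 and 453 CPM in WT-Sham, 1074, 1043 and 1127 in miKO-Sham, 425, 509 and 451 in WT-tFCI, and 568, 888 and 1066 in miKO-tFCI. The WT groups overlapped each other and lay below both miKO groups, which overlapped each other as well. The genotype difference was 1.38 (SE 0.16, edgeR adjusted p = 3.00e-05) in sham mice, with 1.57 and 1.27 within batches, and 0.84 (SE 0.16, edgeR adjusted p = 0.00483) after stroke, with 0.42 and 1.02. The stroke difference was 0.14 (SE 0.16, edgeR adjusted p = 0.510, 95% interval -0.20 to 0.49) in WT and -0.40 (SE 0.16, edgeR adjusted p = 0.0596, 95% interval -0.74 to -0.05) in miKO mice, and the latter was called without miKO-tFCI replicate 3 (-0.58, edgeR adjusted p = 0.0114). The miKO-Sham libraries, where *Anxa3* was highest, held 8.89 to 12.3 CPM of the 6 fibroblast markers, against 237 to 1058 CPM in WT-tFCI, where it was 425 to 509 CPM. The 13 neutrophil markers summed to 639 to 1409 CPM in WT-Sham and 1128 to 1157 in miKO-Sham. In WT-tFCI they summed to 540.4 to 597 CPM, and in miKO-tFCI to 1028 to 1313. Within this sum, *Csf3r* averaged 565 CPM in WT-Sham, 764 in miKO-Sham, 352 in WT-tFCI and 261 in miKO-tFCI. The part of other cells in the level of *Anxa3* was not tested. The correlation of batch-adjusted log2 CPM of *Anxa3* with each other tested gene ranged from -0.14 to 0.35 over the 12 libraries, while the remaining pairs had r of 0.77 to 0.99, a description of libraries that fall into 4 groups.

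*Anxa4*, at chr6:86736840-86793584 on the minus strand, encodes an annexin best known from secretory epithelia. Its level was 18.4, 24.5 and 26.1 CPM in WT-Sham, 18.5, 18.0 and 23.6 in miKO-Sham, 42.5, 41.4 and 40.2 in WT-tFCI, and 71.9, 50.5 and 70.1 in miKO-tFCI. The sham groups overlapped, and each tFCI group lay above the group before it. After stroke it rose by 0.85 (SE 0.18, edgeR adjusted p = 0.00175) in WT and 1.68 (SE 0.18, edgeR adjusted p = 6.59e-06) in miKO mice, while the sham genotype difference was -0.20 (SE 0.18, edgeR adjusted p = 0.507). Its difference between miKO-tFCI and WT-tFCI was 0.64 (SE 0.17, edgeR adjusted p = 0.0306), with 0.75 and 0.54 within batches. The call was lost in 8 of 22 alternatives. Among them were the fits without any one of WT-tFCI replicates 1, 2 and 3 or miKO-tFCI replicates 1 and 3 (0.45 to 0.65). Part of its exons, 75 bases, lie opposite *Gm44036*, a noncoding RNA gene, and the kit does not keep strand.

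*S100a4*, at chr3:90603771-90606045 on the plus strand, encodes a calcium sensor of motile cells and fibroblasts. It had 4, 3 and 0 counts in WT-Sham, 0, 0 and 0 in miKO-Sham, 7, 2 and 0 in WT-tFCI, and 24, 3 and 5 in miKO-tFCI, 48 counts in all, and did not pass the filter, so no fold is given. It was called higher in miKO-tFCI than miKO-Sham, where all libraries of the latter had 0 counts, by edgeR with no filter (adjusted p = 0.00414) and by DESeq2 (adjusted p = 0.00975). In miKO-Sham vs. WT-Sham neither called it (adjusted p of 0.173 in edgeR with no filter and 0.221 in DESeq2). Its interaction was not called by edgeR with no filter (unadjusted p = 0.00693, adjusted p = 0.130). DESeq2 gave the interaction an unadjusted p of 0.0239 and no adjusted p. The only library above 7 counts was the batch 1 library of miKO-tFCI. Of its exon bases, 51.7% are shared with *Gm42674*, a gene on the same strand with 0 counts, and reads there could not be assigned to either. The 4 S100 genes lie within 2961 kb of chromosome 3.

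The remaining members of both gene families were measured as well. Of the 7 other annexins, 5 were tested. *Anxa7* (1 call, 0.70 for miKO-tFCI vs. miKO-Sham, edgeR adjusted p = 0.00135) and *Anxa9* (1.31 after stroke in WT mice and 1.94 in miKO-Sham vs. WT-Sham, edgeR adjusted p of 0.0188 and 0.00313) were called. *Anxa8* was called after stroke in both genotypes, at low levels. It was at 0 CPM in all WT-Sham libraries and at 0.80 ± 0.72 in WT-tFCI. In miKO mice it was at 0.14 ± 0.24 CPM in miKO-Sham and 4.83 ± 5.67 in miKO-tFCI. In miKO-tFCI vs. WT-tFCI, where all 8 member genes were higher, edgeR called no other annexin. Of all genes, 4.08% were called higher and 4.71% lower there. The log2 fold changes of these 5 annexins were all above 0, from 0.27 (*Anxa7*) to 2.31 (*Anxa8*, edgeR adjusted p = 0.0525). Of the 5, 3 had an unadjusted p under 0.05 and DESeq2 called 1. Of the 12 other S100 genes, 6 were tested, and 4 were higher in WT-tFCI than WT-Sham, beside 20.9% of all genes: *S100a1* (2.10), *S100a13* (1.11), *S100a16* (3.51) and *S100b* (3.05). *S100b* is also 1 of the 8 astrocyte markers, of which 5 were higher and 1, *Slc1a3* (-0.69), was lower in the same comparison. *S100a8* and *S100a9*, which encode calprotectin of neutrophils and were also in the neutrophil list, were not called in WT-tFCI vs. WT-Sham (log2 fold change -0.18 and -0.21), with a wide spread in WT-Sham (103 ± 147 and 90.5 ± 129.7 CPM, SD, n = 3), but were higher in miKO-tFCI vs. WT-tFCI (2.30 and 2.24, edgeR adjusted p of 0.0422 and 0.0452), where the 13 neutrophil markers, these 2 included, summed to 1028 to 1313 CPM against 540.4 to 597 CPM. The same sum was 639 to 1409 CPM in WT-Sham and 1128 to 1157 CPM in miKO-Sham. *Csf3r* made up most of it in WT-tFCI, at 352 CPM on average, and was at 261 CPM in miKO-tFCI (log2 fold change -0.43, not called).

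**Figure D4:**
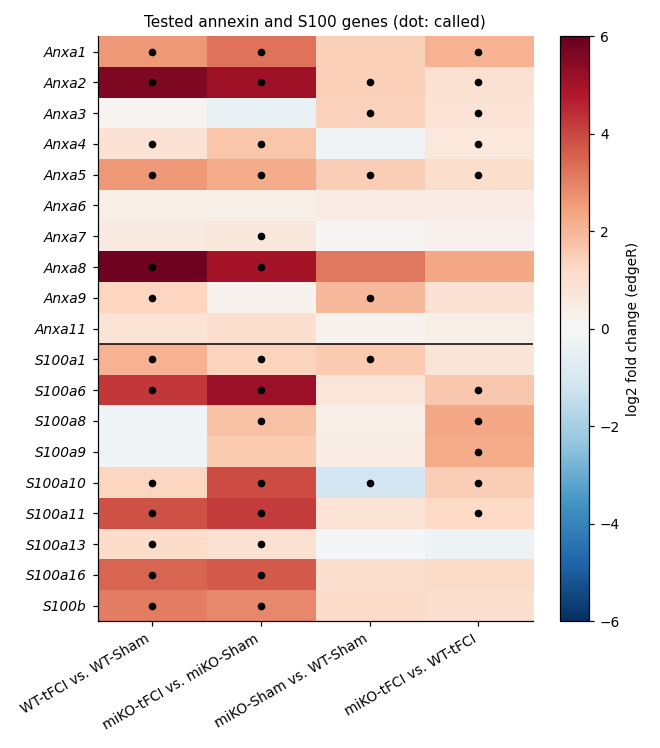
Log2 fold change of the 10 tested annexin and 9 tested S100 genes in 4 comparisons, on a color scale, with a dot where the gene was called. For miKO-tFCI vs. WT-tFCI the 5 annexins described here carry dots. The other 5 do not, though their log2 fold changes were above 0 as well (0.27 to 2.31).

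Genes of the surroundings of these proteins were followed in lists. For plasminogen activation, 3 of 9 tested genes were higher in each of the 4 comparisons, beside 20.9% of all genes for WT-tFCI vs. WT-Sham, 21.9% for miKO-tFCI vs. miKO-Sham, 8.58% for miKO-Sham vs. WT-Sham and 4.08% for miKO-tFCI vs. WT-tFCI. *Plaur*, the urokinase receptor gene, was at 34.2 ± 2.93 CPM in WT-Sham and 209 ± 20.8 in miKO-Sham (SD, n = 3), a log2 fold change of 2.61 (SE 0.15, edgeR adjusted p = 4.58e-08), and its interaction of genotype and surgery was -1.99 (SE 0.20, edgeR adjusted p = 8.68e-05). *Plat*, which encodes tissue plasminogen activator, rose from 1.82 ± 0.70 CPM in miKO-Sham to 84.8 ± 45.2 in miKO-tFCI, and was at 0.03 ± 0.06 CPM in WT-Sham and 33.2 ± 23.9 in WT-tFCI. For membrane repair, 9 of 14 tested genes were higher after stroke in each genotype, beside 20.9% of all genes in WT and 21.9% in miKO mice, among them *Ahnak*, a large scaffold of the annexin A2 and S100A10 complex (2.58 in WT and 3.14 in miKO mice), *Myof* (3.09 and 3.26) and the calpain gene *Capn2* (1.54 and 3.58). In miKO-tFCI vs. WT-tFCI, 4 of 14 were higher, beside 4.08% of all genes, namely *Ahnak* (1.54), *Myof* (1.32), *Capn2* (0.96) and *Cav1* (2.16). *Capn2* and *Cav1*, the caveolin gene, resembled *S100a10* in being lower in miKO-Sham (-1.08 and -3.95) and in a called interaction (2.04 and 6.11, edgeR adjusted p of 0.0193 and 0.00205), though *Cav1* was at 0.05 ± 0.08 CPM in miKO-Sham.

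The receptor genes of annexin A1, *Fpr1* and *Fpr2*, were low, at 8.33 ± 5.93 and 3.47 ± 0.26 CPM in miKO-tFCI and at 1.37 ± 0.92 and 0.32 ± 0.18 in WT-tFCI, and both were higher in the former (2.47 and 3.38, edgeR adjusted p of 0.0102 and 0.0125). *Tlr4*, a receptor for S100 proteins, was lower after stroke in WT mice (-0.96, edgeR adjusted p = 0.00625). It was the only call of the 4 tested receptor genes there, beside 11.7% of all genes called lower. In miKO-tFCI vs. WT-tFCI 2 of the 4 were higher, beside 4.08% of all genes. In miKO-tFCI vs. miKO-Sham 2 of the 4 were higher as well, beside 21.9%, and in miKO-Sham vs. WT-Sham none was called. Of the 6 S100 binding partners, *Myh9* (0.77) was higher and *Dlc1* (-1.89) lower in miKO-Sham than WT-Sham, beside 8.58% and 6.8% of all genes. *Cacybp* (0.79) was higher in miKO-tFCI than miKO-Sham, beside 21.9%. In WT-tFCI vs. WT-Sham edgeR called none, beside 20.9% of all genes higher and 11.7% lower. There 4 of 6 had an unadjusted p under 0.05. In miKO-tFCI vs. WT-tFCI edgeR called none as well, beside 4.08% and 4.71% of all genes, and 2 of 6 had such a p. DESeq2 called none in either of the last 2 comparisons. Of 11 eicosanoid synthesis genes, a pathway annexin A1 is known to restrain, 2 were higher and 2 lower in WT-tFCI vs. WT-Sham: *Ptgs2* (3.94) and *Ptges* (5.58), against *Ptgs1* (-0.74) and *Hpgds* (-0.72), beside 20.9% of all genes called higher and 11.7% called lower. In miKO-tFCI vs. miKO-Sham, 3 were higher, *Pla2g4a* (0.70), *Ptgs2* (4.03) and *Ptges* (3.44), and 4 were lower, *Ptgs1* (-1.10), *Ltc4s* (-1.10), *Hpgds* (-1.32) and *Tbxas1* (-0.74), beside 21.9% and 13.9% of all genes. In miKO-tFCI vs. WT-tFCI, *Ptgs1* (0.80) and *Ptges* (1.10) were higher and *Alox5* (-1.02) was lower. Of all genes, 4.08% were called higher and 4.71% lower there. The same genes were called in the same direction in miKO-Sham vs. WT-Sham. There 3 were higher, *Ptgs1* (1.16), *Ptges* (3.25) and *Tbxas1* (0.65), and *Alox5* (-0.85) was lower, beside 8.58% and 6.8% of all genes.

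**Figure D5:**
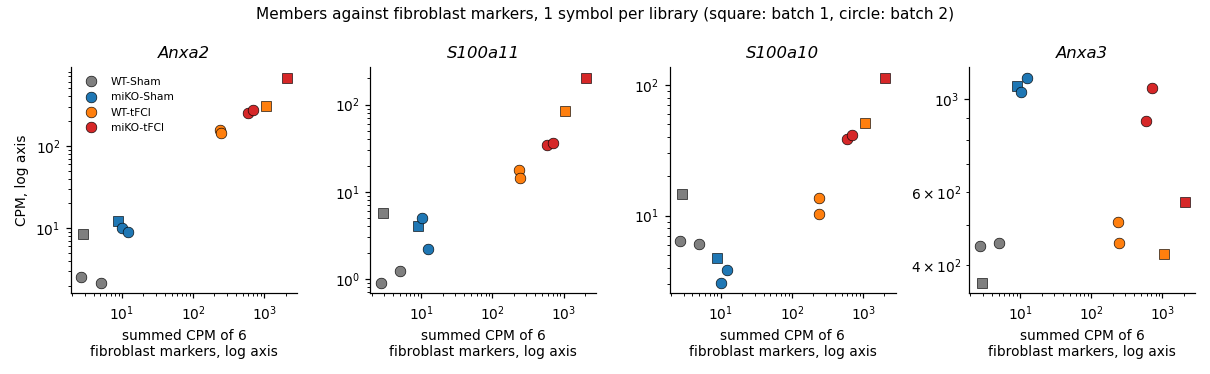
CPM of 4 genes against the summed CPM of 6 fibroblast markers, log axes, 1 symbol per library. *Anxa2* and *S100a11* were high where the marker sum was high, from 237 to 2065 CPM in tFCI libraries, *S100a10* was lowest in miKO-Sham, and *Anxa3* was higher in miKO-Sham than in WT-tFCI. Other marker lists are not plotted, and the part of other cells was not tested.

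The genes most like each member, by Pearson r of batch-adjusted log2 CPM over 12 libraries and among 9310 genes of at least 10 CPM on average, were *Tm4sf1* (0.988 with *S100a6* and 0.996 with *S100a11*), *Bgn* (0.992 with *S100a11*), *Ly6a* and *Gnb1* (0.996 and 0.993 with *Anxa2*), *Slc7a11* and *Gpnmb* (0.994 and 0.990 with *Anxa5*), *Pla2g7* and *Creld2* (0.98 and 0.97 with *Anxa1*), *Cd84* and *Creg1* (0.98 and 0.98 with *Anxa3*), *Rbbp7* and *Morf4l2* (0.99 and 0.99 with *Anxa4*), *Plpp3* and *Tsc22d1* (0.98 and 0.97 with *S100a10*) and *Gm6560* (0.98 with *S100a6*). All share the libraries and the group structure, and no p is given.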

How the data were processed

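Counts per gene were deposited by the authors without normalization, 1 file per library. Per the submitters' processing notes, reads were handled with FastQC 0.11.9, Trim Galore, HISAT2 2.2.1, SAMtools and HTSeq 1.99.2 on mm10/GRCm38.p6. The SMART-Seq v4 kit keeps no strand. Sorting used a CytoFLEX SRT per the labels and a Cytek Aurora per the methods. Counts were filtered (filterByExpr), scaled by TMM and fitted in R 4.3.3 with edgeR 4.0.16 using its quasi-likelihood test with group and batch as terms and all 12 libraries in 1 fit (common BCV 0.199; SE from log2 fold change and F), with DESeq2 1.42.0 as alternative. Per the study's methods, replicates are pools of animals. Symbols and exon lengths came from GENCODE M21, matching 55141 of 55401 identifiers, and near-identical copies were sought with BLAST 2.17.0+. Members and lists were chosen with earlier results of these data known. Named were all members, called list genes of highest level or those a small count stands for, and the 2 genes most alike. Same-numbered replicates of miKO-tFCI and WT-tFCI correlated in their deviations (0.67, 0.33 and 0.32), but with -0.03 within batch 2 after batch removal; in the other comparisons the lowest r was -0.06 to 0.02.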

Additional observations from a re-analysis of the deposited data

Results flagged for a closer look

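The change of *S100a10* after stroke differed between genotypes, with an interaction of 2.61 on the log2 scale (edgeR adjusted p = 0.00118). It was flagged because the response to surgery was tested to differ between WT and miKO mice. *S100a10* rose 2.46-fold in WT and 15.0-fold in miKO microglia, and the interaction was 2.73 and 2.54 within the 2 batches. Without the batch term the interaction was not called (edgeR adjusted p = 0.193). Nor was the WT rise (log2 fold change 1.48, edgeR adjusted p = 0.0768), and the levels of WT-Sham and WT-tFCI overlapped. The cause was not tested.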

How the results depend on the processing

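Over the alternatives, 808 fold changes of single member genes kept direction and side of the threshold, 25 gained a call, 26 lost one and 13 turned in sign; counts of called genes in the related lists stayed within 1.5 times in 650 cases and moved further in 113. Calls after stroke were 6 or 7 in WT and 7 or 8 in miKO mice, where the count of 8 came from *S100a4* in DESeq2 and with no filter (9 genes tested) and from a lower *Anxa3* without miKO-tFCI replicate 3. The count of 6 in WT mice came without the batch term, where *S100a10* lost its call. Without a batch term, 2 members were called in miKO-Sham vs. WT-Sham, 2 in miKO-tFCI vs. WT-tFCI (*Anxa3* and *Anxa5*) and 0 by interaction in edgeR (2 with an unadjusted p under 0.05, and DESeq2, with the batch term, called 1), against 4, 8 and 1. In batch 2 alone, 7 were called in miKO-Sham vs. WT-Sham (6 higher) and 2 by interaction (*S100a10* and *Anxa2*). The interaction count was 2 with no filter (*S100a10* and *Anxa4*), 2 without replicate 1 of WT-Sham, WT-tFCI and miKO-tFCI (chosen after seeing the data), 2 with miKO-Sham replicate 1 placed in batch 2 (likewise; *S100a10* and *Anxa2* in both), and 1 to 2 on leaving out each library, with 2 without WT-Sham replicate 1 or miKO-tFCI replicate 2 (*S100a10* and *Anxa4* in both). The replicate block, with the pairing by number, called 7, 7, 4, 8 and 1 members and changed no call. Interactions that turned in sign, none past the threshold, were *Anxa1* (-0.091 in batch 2 alone, -0.051 to 1.48 leaving out a library), *S100a6* (-0.81 in batch 2 alone, -0.14 with miKO-Sham replicates 1 and 2 summed, -0.77 without the 3 replicates, -0.12 with the moved batch, -0.16 to 1.36 leaving out a library) and *S100a11* (-0.60, -0.55, -0.65 and -0.60 in the same order, -0.54 to 1.14 leaving out a library). The log2 ratio of *S100a11* to *Anxa1* turned without miKO-Sham replicate 3, with leave-one-out ranges of -0.0024 to 1.24 for miKO-tFCI vs. miKO-Sham and -1.10 to 0.14 for miKO-Sham vs. WT-Sham. The causes were not tested. miKO-Sham replicates 1 and 2 differed least of all replicate pairs (chi-square per degree of freedom 2.82, others 3.65 to 76.6) though labelled with different batches; *S100a10* lost its sham call with the pair summed (-0.51). At this depth *S100a4* did not pass the filter and no fold is given.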
